A study of Mus musculus with 3 samples.

Results

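The genes followed here encode 7 subunits of leukocyte integrins, Itgal, Itgam, Itgax, Itgb2, Itgb1, Itga4 and Itgav, and a pair of their cell surface ligands, Icam1 and Vcam1. The 9 genes were chosen by name, with no threshold on measured values, although earlier results of these data were known. They stand among 22350 protein-coding genes that the GENCODE M1 annotation of mm9 places on chromosomes 1 to 19 and X. All 9 were found in the annotation and all 9 were counted.

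The libraries came from bone marrow-derived macrophages (BMDM) of female Fvb mice (Fvb/Hsd in the study's methods), differentiated in culture for 7 days with L929-conditioned medium. Ser5-phosphorylated Pol_II, the form found at the start of genes and into transcribed bodies, was immunoprecipitated and sequenced (ChIP-Seq) from untreated cells and from cells given lipopolysaccharide (LPS) at 10 ng/ml for 2 h, and input DNA came from untreated cells. The sample labels name LPS alone, whereas a figure of the study that plots the stimulated Ser5 library names LPS with γIFN. The labels were followed, and an effect of γIFN, if it was given, cannot be told apart from that of LPS. The comparison of the Ser5 libraries addresses which of these genes gain or lose Ser5-phosphorylated Pol_II after LPS. Each condition is 1 library, and the labels do not say how many mice were pooled, so no test of the conditions could be made. Each interval is at the 95% level and covers counting error alone (exact Poisson for a density, exact conditional for a ratio), and the spread between mice or cultures is unknown.

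Integrins are pairs of one α and one β chain that span the membrane. Itgb2 (CD18) is the β2 chain of leukocytes, and it forms LFA-1 with Itgal (CD11a), Mac-1 or complement receptor with Itgam (CD11b), and the CD11c integrin with Itgax. Itga4 pairs with Itgb1 to form VLA-4, and Itgav pairs with Itgb1 and with other β chains to bind matrix proteins that carry an RGD motif. Icam1 is bound by LFA-1 and Mac-1, and Vcam1 by VLA-4. In tissues these contacts hold leukocytes on inflamed endothelium, and macrophages use them for adhesion, migration and uptake of complement-coated particles. Ser5 Pol_II reports polymerase of that phosphorylated form on the gene and not mRNA or protein.

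The 3 libraries held from 6249819 to 7616771 tags on the chromosomes used, and distinct combinations of position and strand numbered 81.4% to 84.5% of the tags. The tags were 45 bases long in the untreated library, 30 in the LPS library and 36 in the input, and the study's methods give the first pair of lengths the other way round. The LPS response genes followed the labels: the gene body of Ccl5, a chemokine gene, held 24 tags in untreated cells and 7803 after LPS, and Tnf held 1640 and 12945. The inhibitor gene Nfkbia held 1139 and 5769 tags, and the cytokine gene Il1b 35 and 1277. Of 8 macrophage marker genes, 7 stood at least 2 times above input in each Ser5 library, where 37.6% of coding genes did in untreated cells and 32.9% after LPS. The exception was Mrc1, at 1.15 times input in untreated cells. After LPS 4 of the 8 were lower by the limit used below (Csf1r 0.449, Cd68 0.263, Lyz2 0.405 and Mrc1 0.157 times untreated), where 11.3% of coding genes were. Another 2 were higher (Emr1 3.01 and Cd14 3.18 times), where 5.83% of coding genes were. The density pooled over the 8 was 6.76 before and 7.37 after LPS. None of the 21 B cell, neutrophil, dendritic cell, fibroblast, endothelial and epithelial markers stood at least 2 times above input with libraries scaled to their totals. In untreated cells Cd79b and S100a8 came close, each at 1.98 times input, and Cd79a was at 1.68 times. Such ratios to input depend on that scaling. Of 5 T cell markers Cd3d and Lck passed the limit, at 3.84 and 3.12 times input in untreated cells, with Cd3e, Cd3g and Cd8a below input. The part of other cells in the results was not tested. Whether a change reflects more cells carrying Pol_II on a gene or more Pol_II per cell cannot be told apart in these bulk libraries. Nor can a change in the amount of Pol_II be told apart from a change in its Ser5 phosphorylation, as total Pol_II was not compared here.

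Ser5 over the gene bodies split the 9 genes, with Icam1, Itgal and Itga4 higher after LPS and Itgam and Itgb2 lower. Density is given as TPM (tags per 1000000 tags of the library) per kb of gene body from the annotated 5′ to the annotated 3′ end, and a ratio is LPS over untreated. A gene was called higher or lower where its ratio reached 2 in either direction and the pair of Ser5 libraries held 10 tags or more. In gene bodies 3 of 9 members were called higher, where 5.83% of 17386 coding genes with enough tags were, and 2 of 9 were called lower, where 11.3% of coding genes were. Itgb1, Itgav, Itgax and Vcam1 passed neither limit. At the 5′ end, within 1 kb of the annotated transcription start site (TSS), 8 members had enough tags. There Icam1, Itgal and Itga4 were again higher, 3 against a background of 5.58% of 12535 coding genes, and Itgam, Itgb2 and Itgax were lower, 3 against 14.1%. The ratios of all coding genes were centred below 1, at a median of 0.874 in gene bodies and 0.831 at the TSS, a shift of -0.19 and -0.27 on the log2 scale. The median ratio of the 9 members was 1.32 in gene bodies. At the TSS it was 0.812, which is the value of Vcam1, on 3 and 2 tags. Vcam1 had too few tags for a call there, whereas the medians of coding genes cover genes with enough tags. Among the 8 members with enough tags, the middle of the order lay between Itgav at 0.701 and Itgb1 at 1.11. Relative to the median of coding genes, the gene body ratio of Itgb1 reached 2.07 and the TSS ratio of Itgam was 0.503, so the first would be called higher and the second would no longer be called lower.

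**Figure D1:**
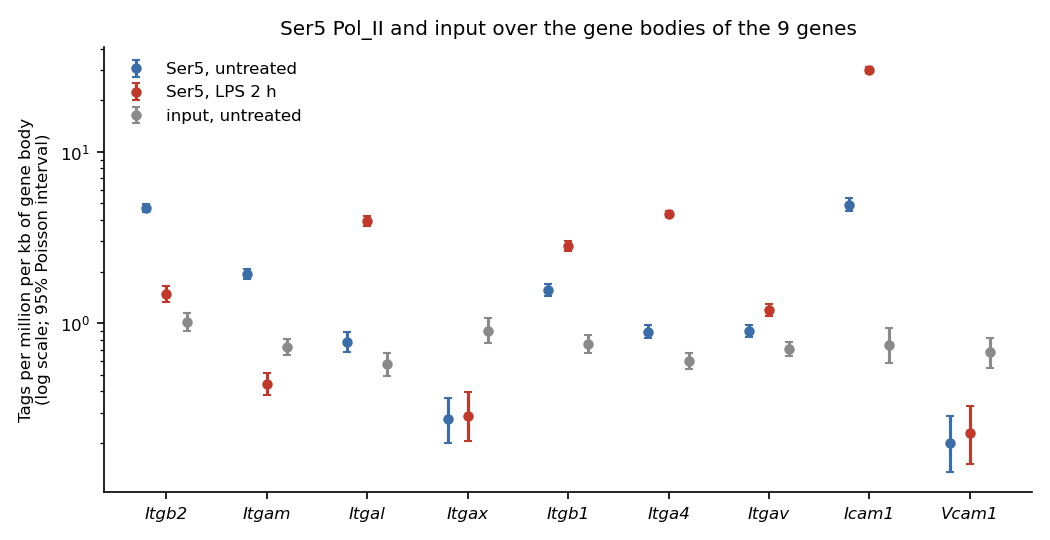
Gene body density of each gene in the 3 libraries (y axis, TPM per kb, log scale). Points are single libraries and bars are 95% Poisson intervals for counting error. Icam1 after LPS, at 29.9, lies above all other values, and Itgax and Vcam1 lie below their input in both Ser5 libraries.

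**Figure D2:**
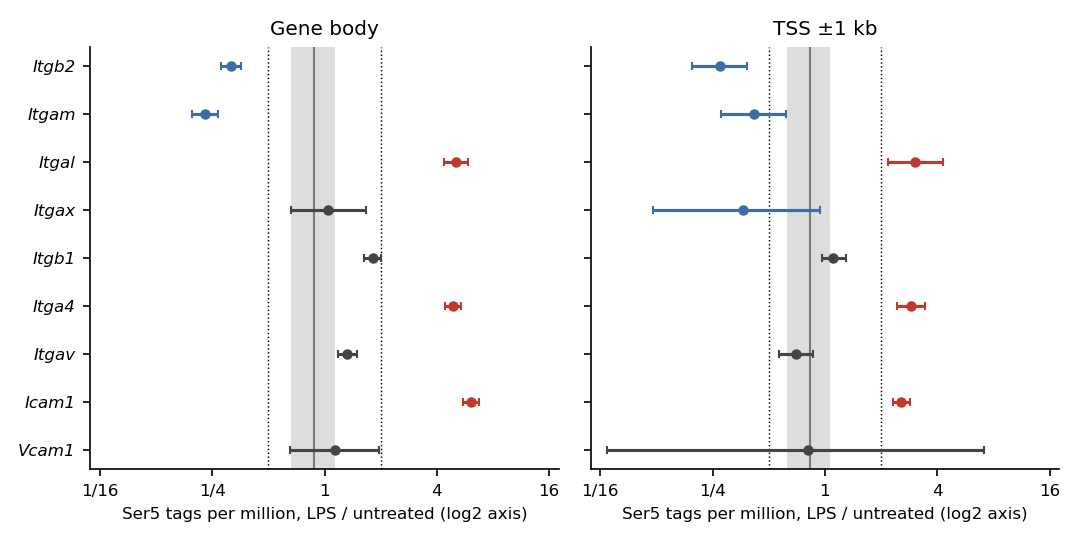
Ratio of Ser5 TPM after LPS to untreated for each gene, in the gene body (left) and within 1 kb of the TSS (right), on a log2 axis with 95% counting intervals. The grey band spans the lower to the upper quartile of all coding genes, the grey line is their median (0.874 and 0.831), and dotted lines mark a ratio of 2 in each direction; red genes were called higher and blue genes lower.

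Compared with input, 4 of 9 gene bodies stood at least 2 times above it in untreated cells, Icam1, Itgb2, Itgam and Itgb1, where 37.6% of coding genes did. After LPS there were again 4, where 32.9% of coding genes did, but they were Icam1, Itga4, Itgal and Itgb1. These ratios to input use library totals and depend on that scaling. Scaled to the tags outside the peaks, 7 members stood at least 2 times above input in untreated cells (54.9% of coding genes), with Itga4, Itgal and Itgav already among them, and 6 after LPS (51.7%), with Itgb2 still among them and Itgam not. A deposited peak lay within 1 kb of the TSS of 7 members in both libraries, where 48.0% of coding genes had one in untreated cells and 45.9% after LPS, and Itgax and Vcam1 had none in either library.

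Itgb2, the shared β chain of the leukocyte integrins, lies at chr10:76992997-77028453 on the plus strand of mm9. Its gene body held 1263 tags in untreated cells, 328 after LPS and 270 in the input. Untreated Ser5 was 4.63 times the input (4.05 to 5.30), and after LPS it was 1.46 times the input. The density went from 4.68 to 1.48, a ratio of 0.317 (0.279 to 0.358). At the TSS the counts were 200, 45 and 13 tags, a ratio of 0.274 (0.194 to 0.381). The 5′ end and the body of Itgb2 were therefore lower to a similar degree. Each of the 10 equal parts of the gene body was lower by at least 2 times, with ratios from 0.174 in the last part to 0.436 in the third. The authors' peaks over the gene numbered 23 before LPS and covered 38.6% of it, and 4 after LPS that covered 4.76%. The 5 kb beyond the 3′ end held 188 tags and then 36, a ratio of 0.233. The neighbouring genes 1810008A18Rik and Pttg1ip passed no limit, with ratios of 0.780 and 1.14.

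Itgam, the α chain of Mac-1, lies at chr7:135206154-135271674 on the plus strand. Over the gene body there were 968 tags in untreated cells, 182 after LPS and 358 in the input. The density of 1.94 became 0.444, a ratio of 0.229 (0.194 to 0.269), which is the lowest of the 9 and at the 1.23 percentile of coding genes. After LPS the gene body was at 0.613 times the input (0.510 to 0.735), with both libraries scaled to their totals. At the TSS the counts were 105, 36 and 22 tags, a ratio of 0.418 (0.278 to 0.615), and the LPS library was still 1.97 times the input. Of 10 equal parts of the gene, 9 were lower by at least 2 times, and the fifth had a ratio of 0.582 with 67 and 32 tags. That part holds a peak called in both libraries, at chr7:135232707-135233027 in untreated cells, where 19 tags were counted before and 19 after LPS. The gene had 17 peaks in untreated cells and 2 after LPS, and of the 14 untreated peaks more than 1 kb from the TSS, 5 touched an annotated exon and the others were intronic. The macrophage genes Csf1r, Cd68, Lyz2 and Mrc1 given above were lower after LPS as well, and whether Itgam and Itgb2 moved with them for a shared reason was not tested.

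A second site of Ser5 lay upstream of Itgam, outside any annotated gene. It was called at chr7:135202099-135202398, with its centre at -3906 bases from the TSS, and held 47 tags in untreated cells, 11 after LPS and 2 in the input. A peak was also called there after LPS, at chr7:135202179-135202379. In bins of 250 bp, the highest untreated bin within 5 kb of the TSS of Itgam was at this upstream site. It held 44 tags, close to the 39 in the bin centred 125 bases inside the gene. The untreated peak at the TSS, chr7:135205843-135206623, held more tags than the upstream peak, 76 against 47. A further untreated peak centred at -11708 bases held 58, 7 and 5 tags. The 19 kb upstream of the TSS window held 240 tags and then 62, a ratio of 0.315 (0.234 to 0.418). The promoter of Itgam (the 250 bases before the annotated TSS, chr7:135205904-135206153) and the upstream site, both on the plus strand, are shown because Ser5 was lower at both after LPS. Capitals mark a match to one of the motifs listed further on, an Sp1 match in the promoter and an AP-1 match in the upstream site. The sequences are those of the mm9 reference genome, which is from another strain than these Fvb/Hsd mice.
Itgam promoter: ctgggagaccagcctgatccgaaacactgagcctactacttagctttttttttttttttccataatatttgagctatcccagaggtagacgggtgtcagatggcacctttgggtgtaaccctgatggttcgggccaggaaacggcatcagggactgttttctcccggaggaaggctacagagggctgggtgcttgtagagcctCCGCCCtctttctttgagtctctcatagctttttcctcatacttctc
Itgam upstream site: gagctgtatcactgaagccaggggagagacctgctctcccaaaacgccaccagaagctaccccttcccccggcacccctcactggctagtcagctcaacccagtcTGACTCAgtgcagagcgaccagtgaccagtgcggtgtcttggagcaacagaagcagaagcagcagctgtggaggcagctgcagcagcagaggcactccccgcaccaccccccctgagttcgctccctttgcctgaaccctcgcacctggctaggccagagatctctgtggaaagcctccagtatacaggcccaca

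Itgal, the α chain of LFA-1, lies at chr7:134439774-134478651 on the plus strand and moved the opposite way to its partner Itgb2. Its gene body held 230 tags in untreated cells, 955 after LPS and 169 in the input, and the density went from 0.777 to 3.93. The ratio was 5.06 (4.38 to 5.87), at the 99.1 percentile of coding genes. Untreated Ser5 over the body was 1.35 times the input (1.10 to 1.65), and after LPS it was 6.81 times. At the TSS there were 50, 125 and 15 tags, a ratio of 3.05 (2.18 to 4.32). All 10 parts of the gene were higher by at least 2 times, with ratios from 3.31 to 8.99. Both libraries had a pair of maxima near the 5′ end, with 20 and 18 untreated tags and 53 and 55 LPS tags in the bins centred 125 and 1125 bases inside the gene. Peaks went from 3, covering 2.88% of the gene, to 27, covering 28.5%, and of the 26 LPS peaks more than 1 kb from the TSS, 11 touched an exon. The longest of the 26, chr7:134478590-134480320, runs past the annotated 3′ end and held 25 tags before and 92 after LPS. Zfp768, the next gene, had a ratio of 0.903. The promoters of Itgal (chr7:134439524-134439773) and Itgb2 (chr10:76992747-76992996), both on the plus strand, are set side by side because the chains form one receptor. Capitals mark a PU.1 type match in Itgal at 16 to 9 bases before the TSS; no searched motif was found in the Itgb2 window.
Itgal promoter: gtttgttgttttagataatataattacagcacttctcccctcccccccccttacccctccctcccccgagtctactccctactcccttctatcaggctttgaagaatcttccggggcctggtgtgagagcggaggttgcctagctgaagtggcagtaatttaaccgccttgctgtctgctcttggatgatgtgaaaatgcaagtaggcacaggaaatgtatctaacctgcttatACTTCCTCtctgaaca
Itgb2 promoter: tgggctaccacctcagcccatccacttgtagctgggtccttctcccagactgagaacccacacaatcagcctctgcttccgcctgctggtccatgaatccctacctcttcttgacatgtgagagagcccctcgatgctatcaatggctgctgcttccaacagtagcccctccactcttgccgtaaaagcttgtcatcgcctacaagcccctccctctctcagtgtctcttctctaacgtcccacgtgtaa

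Itgax, the CD11c chain, lies at chr7:135273061-135294171, directly beyond Itgam on the same strand. In the gene body there were 44 tags in untreated cells, 38 after LPS and 144 in the input, a ratio of 1.05 (0.664 to 1.66). Both Ser5 libraries were below the input, at 0.302 and 0.318 times. At the TSS the counts were 20, 6 and 18 tags. The ratio there of 0.366 (0.120 to 0.944) passed the limit for a lower gene, but the untreated library was at 1.10 times the input (0.552 to 2.20). The neighbouring genes Itgam and Itgax thus lay far apart in untreated gene body density, at 1.94 and 0.274. The 19 kb before the TSS window of Itgax lie largely over Itgam and held 243 and then 42 tags.

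Within each library, the Ser5 densities of the β2 family chains were set against one another. The density of Itgal was 0.166 times that of Itgb2 in untreated cells (0.144 to 0.191) and 2.66 times after LPS (2.34 to 3.02). The untreated body of Itgal was itself close to the input, at 1.35 times. In the TSS windows, which have equal length, Itgal had 50 tags and Itgb2 200 before LPS, against 125 and 45 after. For Mac-1, Itgam was at 0.415 times Itgb2 over the gene body before LPS and 0.300 times after, but at the TSS it was at 0.525 times before (0.411 to 0.668), and after LPS, with 36 and 45 tags, the interval of 0.501 to 1.27 overlapped the untreated one. The lower Itgam share seen over the gene body was therefore not seen at the 5′ end. With libraries scaled to their totals, the LPS body of Itgam lay below the input. With the first 1 kb of each gene left out, the Itgal to Itgb2 value was 0.160 before and 2.67 after. These are ratios of Ser5 density between genes within a library and say nothing of protein.

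Itga4, the α chain of VLA-4, lies at chr2:79095583-79173280 on the plus strand. Its body held 528 tags in untreated cells, 2107 after LPS and 352 in the input. The density went from 0.892 to 4.34, a ratio of 4.86 (4.42 to 5.36), at the 99.0 percentile. Untreated Ser5 was 1.48 times the input and LPS Ser5 7.22 times. At the TSS there were 199, 471 and 20 tags, a ratio of 2.88 (2.44 to 3.42), so the 5′ end was already 9.84 times the input before LPS. All 10 parts were higher, from a ratio of 3.01 in the last to 9.30 in the seventh. Peaks went from 3, covering 1.45% of the gene, to 60, covering 36.0%. No other member had as many peaks, and 16 of the 59 LPS peaks more than 1 kb from the TSS touched an exon. A peak at chr2:79093475-79094395, upstream of the TSS, was called only after LPS and held 5, 57 and 8 tags. The gene Cerkl overlaps the 3′ end on the other strand, and ChIP tags cannot be assigned to a strand of transcription. Over its whole length Cerkl had a ratio of 1.39 and, with libraries scaled to their totals, a density below input in both Ser5 libraries.

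Itgb1, the β chain shared by VLA-4 and many matrix receptors, lies at chr8:131209554-131257100 on the plus strand. The gene body held 565 tags in untreated cells, 838 after LPS and 271 in the input, a ratio of 1.81 (1.62 to 2.01). At the TSS it held 382, 349 and 10 tags, and the ratio was 1.11 (0.960 to 1.29). The Ser5 at the 5′ end of Itgb1 did not pass either limit. Before LPS it was 37.8 times the input (20.3 to 79.4), the highest value of the 9, but on 10 input tags. That interval overlapped those of Icam1 (10.7 to 22.5) and Itgb2 (8.70 to 29.1). In untreated density at the TSS Icam1 was higher, at 32.3 against 25.1. With the first 1 kb left out, the gene body ratio was 2.01 (1.76 to 2.29), on the limit for a higher gene. The 10 parts had ratios from 1.42 in the first to 2.94 in the eighth, and 4 of them reached 2. Peaks numbered 2 before and 8 after LPS. The density of Itga4 was 0.572 times that of Itgb1 before LPS (0.507 to 0.645) and 1.54 times after (1.42 to 1.67).

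Itgav, the αv chain, lies at chr2:83564554-83647073 on the plus strand. Tags in the gene body numbered 566 tags in untreated cells, 615 after LPS and 439 in the input, a ratio of 1.32 (1.18 to 1.49). At the TSS it held 252, 145 and 21 tags, a ratio of 0.701 (0.568 to 0.864). The values at the 5′ end and over the body lay on opposite sides of 1, and neither passed the limit. The body without its first 1 kb was at 0.939 times the input before LPS (0.818 to 1.08) and 1.40 times after (1.23 to 1.60). Peaks numbered 4 before and 3 after LPS, with 2 within 1 kb of the TSS in each library. The lincRNA Gm13684 and the pseudogene Dnmt3l-ps1 overlap the gene on the other strand, with ratios of 1.20 and 1.73.

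Icam1, the ligand of LFA-1 and Mac-1, lies at chr9:20820404-20833241 on the plus strand and had the largest gene body ratio of the 9. At the TSS the ratios of Itgal and Itga4 were higher than that of Icam1, with overlapping intervals. With scaled input subtracted they also had larger gene body ratios, at 16.7 and 12.8 against 7.00 for Icam1. Their untreated bodies were at 1.35 and 1.48 times the input, against 6.59 for Icam1, so that subtraction left them a small denominator. The gene body of Icam1 held 480 tags in untreated cells, 2401 after LPS and 72 in the input. The density went from 4.91 to 29.9, a ratio of 6.10 (5.52 to 6.74). At the TSS the counts were 493, 1040 and 32 tags, a ratio of 2.57 (2.31 to 2.87). The 5′ end of Icam1 thus already carried Ser5 before LPS, at 15.2 times the input, and the gene beyond its first 1 kb differed more, with 205 tags before and 1618 after LPS and a ratio of 9.62 (8.31 to 11.2). The 10 parts had ratios from 3.58 in the first to 18.7 in the fifth. Introns held 198 tags before and 1472 after LPS, a ratio of 9.06 (7.81 to 10.6), and exons, which include the 5′ end, 282 and 929, a ratio of 4.01 (3.51 to 4.60). Peaks covered 19.9% of the gene before LPS and 92.9% after, and the longest after LPS, chr9:20829198-20835056, held 223 and then 1549 tags. The promoter of Icam1 (chr9:20820154-20820403, plus strand) is shown because it had the most Ser5 tags at its 5′ end of the 9 genes and holds the only NF-kB type match among them, 173 to 165 bases before the TSS. Capitals mark this match, the Sp1 match 37 to 32 bases before the TSS, and the TATAAA letters 7 to 2 bases before the annotated TSS. Whether these last letters act as a TATA box was not tested.
Icam1 promoter: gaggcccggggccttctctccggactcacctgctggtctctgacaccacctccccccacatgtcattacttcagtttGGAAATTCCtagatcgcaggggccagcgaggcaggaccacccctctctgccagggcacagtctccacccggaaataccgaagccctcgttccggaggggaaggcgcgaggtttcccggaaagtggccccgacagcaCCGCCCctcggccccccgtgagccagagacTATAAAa

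Higher Ser5 extended past Icam1 into the genes beyond it. The 5 kb after its 3′ end held 266 tags before and 1042 after LPS, a ratio of 4.77 (4.17 to 5.48). Icam4, the red cell ICAM, starts within this stretch and held 97 and 619 tags, a ratio of 7.78 (6.27 to 9.74). Icam5, a neuronal ICAM, held 69 and 156, a ratio of 2.76 (2.06 to 3.71). The lincRNA Mir1900 overlaps the 3′ end of Icam1 and the whole of Icam4 on the other strand and held 228 and 1049 tags. The longest LPS peak runs from inside Icam1 over Icam4, and the tags of the 2 genes cannot be told apart by where one transcript ends. On the upstream side Mrpl4, a mitochondrial ribosomal protein gene, had a ratio of 1.08 (0.883 to 1.31), and the 19 kb before the TSS window of Icam1 had 426 and 342 tags.

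Vcam1, the ligand of VLA-4, lies at chr3:115812938-115832606 on the minus strand. The body of the gene held 30 tags in untreated cells, 28 after LPS and 100 in the input, a ratio of 1.14 (0.655 to 1.97). Both Ser5 libraries were below the input over the gene. At the TSS there were 3, 2 and 8 tags, too few for a call. No peak was called in the gene or within 20 kb of it. Of the ligand genes, Icam1 was among the densest of the 9 in both Ser5 libraries, its interval overlapping that of Itgb2 in untreated cells, and Vcam1 was at the low end with an interval overlapping that of Itgax.

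The order of the 9 genes by gene body density changed with LPS. In untreated cells Icam1 and Itgb2 led with overlapping intervals, at 4.91 and 4.68, followed by Itgam at 1.94 and Itgb1 at 1.56. Itgav, Itga4 and Itgal lay between 0.777 and 0.901, each overlapping its neighbour in the order, and Itgax and Vcam1 overlapped at the bottom. After LPS Icam1 stood apart at 29.9, then Itga4 and Itgal, whose intervals overlapped, then Itgb1, Itgb2 and Itgav, each apart from the next. Itgam came seventh at 0.444, overlapping Itgax. Among 14336 coding genes with at least 50 tags over both libraries, those nearest to Icam1 in the pair of log2 densities were Sod2, the mitochondrial superoxide dismutase gene, Sdc4, a syndecan gene, and Mapkapk2, a kinase gene downstream of p38, with ratios of 5.75, 5.53 and 6.36. The nearest to Itgam were Gm129, Lrmp and Gal3st4, with ratios of 0.226, 0.254 and 0.264, the first on 54 and 10 tags. Ratios near those of Icam1 and Itgam follow from the way these genes were picked and are not a result.

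**Figure D3:**
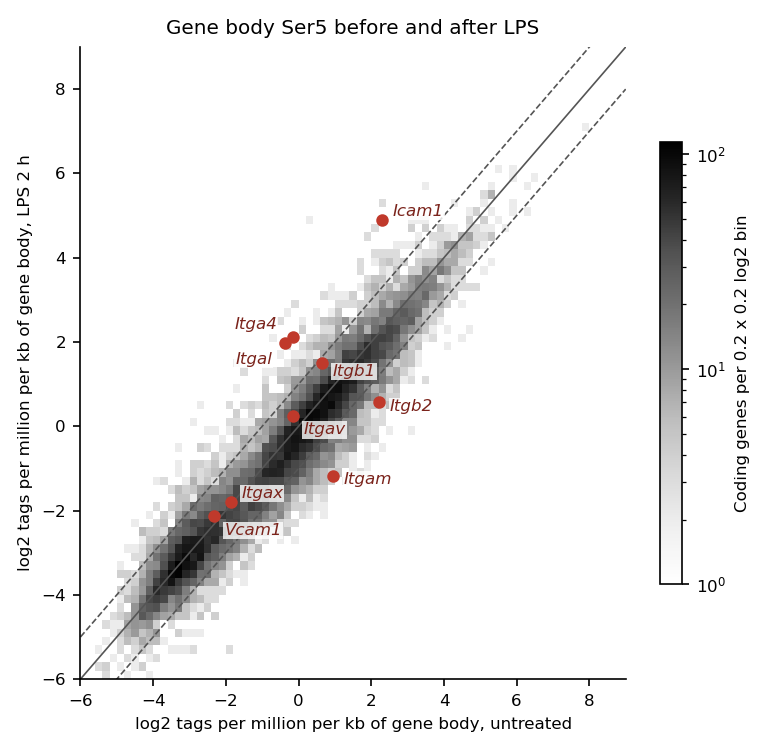
Gene body density of coding genes with at least 10 tags in untreated cells (x axis) and after LPS (y axis), both log2 of TPM per kb; grey squares give the number of genes per bin, red points the 9 genes. The solid line marks equal density and dashed lines a ratio of 2. Icam1, Itga4 and Itgal lie above the upper dashed line, and Itgb2 and Itgam below the lower one.

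The distribution of Ser5 between the 5′ end and the rest of the gene differed among members. The density within 1 kb of the TSS was divided by that of the gene body beyond its first 1 kb. This quotient was highest for Itgav, Itgb1 and Itga4 in untreated cells, at 25.0 (21.3 to 29.3), 23.6 (20.4 to 27.3) and 18.9 (15.9 to 22.4). It was 11.7, 13.1 and 9.88 after LPS, below the untreated intervals in each case. For Icam1 it went from 14.2 (12.1 to 16.8) to 3.80 (3.51 to 4.11), and for Itgal from 4.96 (3.55 to 6.80) to 2.79 (2.30 to 3.37). Itgb2 had 3.17 (2.71 to 3.69) and 2.68 (1.91 to 3.68), intervals that overlap. Itgam went the other way, from 3.80 (3.07 to 4.65) to 7.59, with a lower bound of 5.12. The genes called higher in the body had a lower quotient after LPS, and so did Itgb1 and Itgav, which were not called. The quotient divides by nearly the same body density that gave the calls, so its direction in called genes is partly fixed by the call. Some denominators also lay near or below the input, with libraries scaled to their totals. Beyond the first 1 kb, untreated Itgav was at 0.939, Itga4 at 1.18 and Itgal at 1.20 times the input, and Itgam after LPS at 0.531 times.

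**Figure D4:**
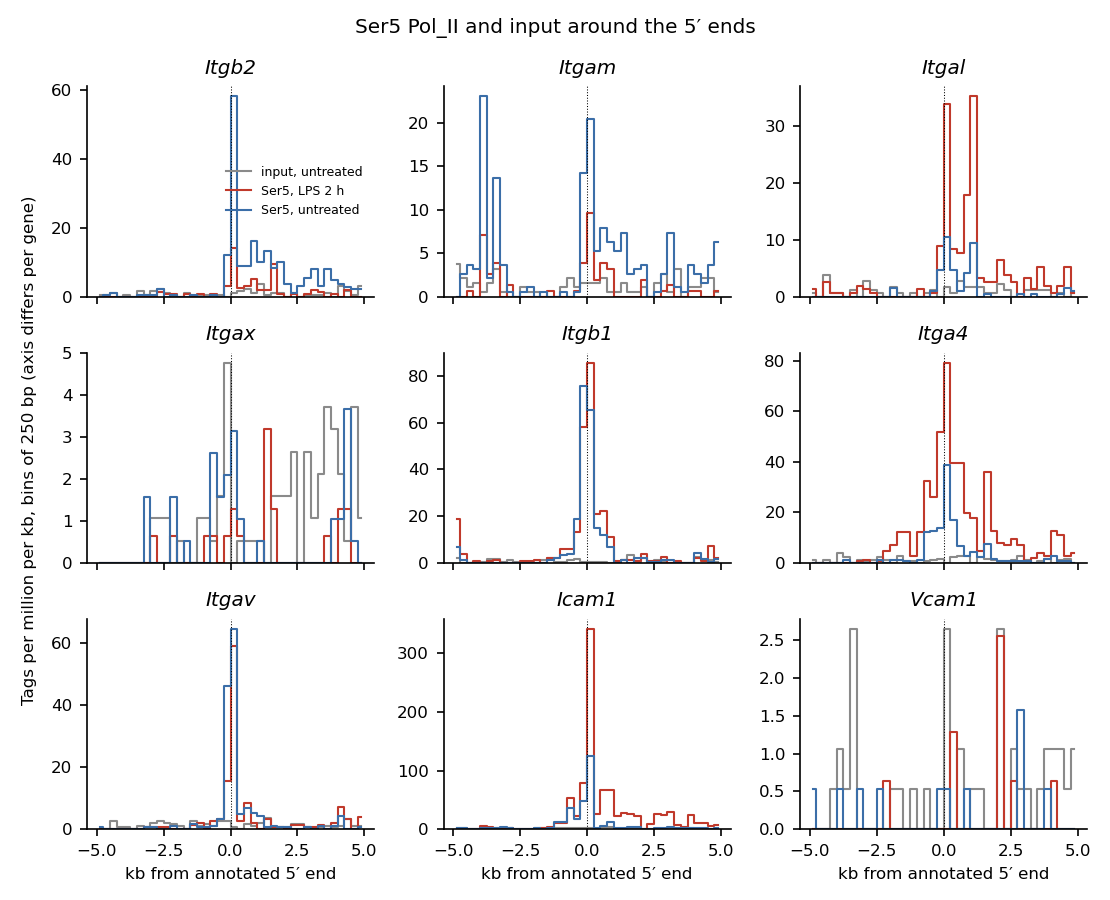
TPM per kb in bins of 250 bp within 5 kb of the annotated 5′ end of each gene (dotted line), read in the direction of transcription, for the Ser5 libraries and the input; the y axis differs between genes. Itgam shows a second untreated maximum, of 44 tags, at -3875 bases, and the Itgax and Vcam1 panels hold at most 9 tags in any bin.

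**Figure D5:**
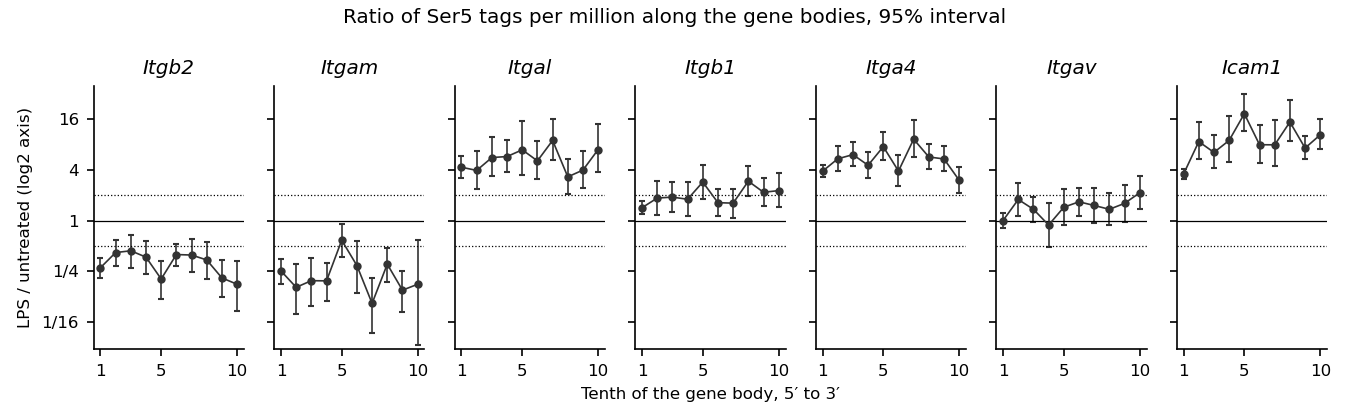
Ratio of Ser5 TPM after LPS to untreated in 10 equal parts of the gene body, from 5′ to 3′, with 95% counting intervals on a log2 axis, for the 7 genes other than Itgax and Vcam1. All parts of Itgal, Itga4 and Icam1 lie above the upper dotted line (a ratio of 2), and all parts of Itgb2 below the lower one.

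Sequence features of the promoters were compared with those of all coding genes. Windows of 250 bases before the TSS were searched on both strands for GGANNTTCC (NF-kB type), GAGGAAGT (PU.1 type), GGAAGT (Ets type, contained in the one before), GAAANNGAA (IRF type), TGANTCA (AP-1), GGGCGG (Sp1) and TATAAA (core promoter box), with N any base. The NF-kB type letters were in the window of Icam1 alone among the 9, and in 3.69% of 22345 coding promoters. The PU.1 type letters were in Itgal and Itgav, 2 of 9, and in 2.24% of promoters. The Ets type letters were in Itgax, Itgal and Itgav, and in 19.8% of promoters. The IRF type letters were in Itgav and Vcam1 (7.56% of promoters) and the AP-1 letters in Itgax and Vcam1 (6.01%). The Sp1 letters were in Itgam, Itgb1, Itga4 and Icam1 (39.6%) and the TATAAA letters in Icam1 (12.3%). Among the central 300 bases of 38655 untreated Ser5 peaks, 9.50% held the AP-1 letters seen in the site upstream of Itgam. A match gives only that the letters are present. In base composition, the windows of Itgb1, Itga4, Itgav and Icam1 were 63.2% to 68.0% G and C, those of Itgal, Itgam, Itgax and Itgb2 48.8% to 54.8%, and that of Vcam1 33.2%, where the median coding promoter had 54.0%. CpG dinucleotides numbered 21 in Itgb1, 18 in Itgav and 15 in Icam1, 4 to 6 in Itga4 and the 4 β2 family genes, and 0 in Vcam1.

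A list of 57 other adhesion genes gives the setting of the 9. All 57 had at least 10 tags. Of these, 6 were called higher and 6 lower, where 5.83% and 11.3% of 17386 coding genes were. The higher ones include Icam4 and Icam5, which start in the stretch of higher Ser5 beyond Icam1 and are not separate cases from it. The same shares of coding genes apply to the counts per class given next. The median ratio of the 57 was 0.941 against 0.874 over coding genes. Among 19 other integrin chains, 1 was higher and 3 were lower. Itgb8, which activates TGFβ together with Itgav, went from 66 to 255 tags, a ratio of 4.71 (3.58 to 6.27). With libraries scaled to their totals, the density of Itgb8 stayed below the input of 0.603, and such comparisons with input depend on that scaling. Itgb5, another partner of Itgav, held 1072 and 275 tags, a ratio of 0.313 (0.273 to 0.357). Itga6, a laminin receptor chain, had a ratio of 0.406 (0.344 to 0.479) and Itga8 0.460 (0.375 to 0.560). Both were below input in either library at the same scaling. Itga5, the fibronectin receptor chain that pairs with Itgb1, went from 873 to 1163 tags, a ratio of 1.62 that passed no limit.

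Among 11 other ligands, 3 were higher, Icam4 and Icam5 beside Icam1 and the matrix gene Thbs1, the last with 59 and 98 tags and 2.02 times as much after LPS (1.45 to 2.85). Icam4 lies under an LPS peak that starts inside Icam1, so the count of 3 is not one of separate loci. Spp1, the osteopontin gene, had the highest untreated density of the list at 11.9 and a ratio of 0.731. Among 19 genes that activate integrins or link them to actin, Vcl, the vinculin gene, was higher with a ratio of 2.15 (1.96 to 2.36). Parvg and Parvb, parvin genes of the complex with the kinase Ilk, were lower with ratios of 0.222 (0.182 to 0.268) and 0.430 (0.384 to 0.480), as was Fermt1, which was below input. Ilk itself, at a density of 9.02 in untreated cells, had a ratio of 0.941 (0.814 to 1.09). Tln1 and Fermt3, the talin and kindlin of leukocytes that switch β2 integrins on, had ratios of 0.951 (0.883 to 1.02) and 0.786 (0.719 to 0.858) and passed no limit. Among 8 selectins and their partners, Cd47, which associates with integrins, was higher with 988 and 2902 tags and a ratio of 3.58 (3.33 to 3.85).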

How the data were processed

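The authors trimmed the reads, placed them on mm9 with Bowtie, kept those with a single match, and ran MACS separately for both Ser5 libraries with the input as control. Tool versions are not given in the sources used here. The deposited tag files hold coordinates and strands, duplicates included, and the deposited peak score, minus 10*log10 of the MACS p-value, served only to select peaks, all with a p of at most 1e-05. Gene records came from GENCODE M1 and sequences from the NCBIM37 (mm9) genome.

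Tags on chromosomes 1 to 19 and X were counted by 5′ end, as 7616771, 6249819 and 7533308 tags for untreated Ser5, Ser5 after LPS and input, and divided by these totals. With 1 library per condition no replicate error exists, and a ratio of 2 with 10 tags was a description of size. A peak counted where it overlapped a window by 1 bp. Motif and counting functions were tested on simulated data (Python 3.11.15, numpy 2.4.6, scipy 1.17.1).

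The members and lists were chosen with earlier results of these data known. Named genes were the members, the other adhesion genes past the limit with an interval excluding 1 (at most 6 in each direction) and the 3 densest of that list. Also named were genes overlapping a member, the nearest genes and the LPS response genes. Genes starting within 20 kb of a member were named only in part, and Itgad, Fam171b, Gm17511 and Gm17470 were among those left out. The remaining genes named, and the printed promoters and upstream site, were picked after their values were seen. Alternatives changed duplicates, tag position, scaling, background, tag length, regions and thresholds.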

Additional observations from a re-analysis of the deposited data

How the results depend on the processing

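No paired analysis was possible because each condition had a single library. Across 8 alternatives per gene and region no ratio of a member changed direction past a limit. With the scaled input subtracted, gene body ratios became 16.7 for Itgal, 12.8 for Itga4, 2.57 for Itgb1, 2.50 for Itgav and 0.129 for Itgb2, while Itgam had LPS tags below the scaled input, so its ratio was 0.00100 only by the small value added. The untreated bodies of Itgal, Itga4 and Itgav were at 1.35, 1.48 and 1.28 times the input, so their subtracted ratios rest on a small denominator. With that subtraction 5 members were called higher, in place of 3, where 8.61% of coding genes were, and 10 other adhesion genes lower, in place of 6, where 20.2% were. Leaving out the first 1 kb took the Icam1 gene body from 6.10 to 9.62. At a limit of 1.5 times, 13 other adhesion genes were higher and 11 lower (12.0% and 25.3% of coding genes). Scaled to the tags outside the peaks, 7 members stood at least 2 times above input in untreated cells in place of 4 (54.9% of coding genes), and 6 after LPS (51.7%). With the median of coding genes set to 1, 4 members were higher in gene bodies (7.99% of coding genes) and 2 lower at the TSS (9.23%). Limiting tags to those whose first 30 bases occur once in the genome gave 0.235 for the gene body of Itgam, where 77.8% of positions were single-copy, and 6.15 for Icam1. At a peak score of at least 100, 7 members had a TSS peak in untreated cells and 6 after LPS. The share of coding genes at that score was not counted, so these counts have no background. At the TSS, Vcam1 had too few tags for a call, and intervals cover counting error only.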
